A study of Homo sapiens with 10 samples.

Results

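The p53 target genes described here are 31 protein-coding genes, taken by symbol from the gene names in the deposited count tables out of 58676 genes. They were listed for their known place in the p53 response, though earlier results of these data were known when the list was made. All 31 had enough counts to be tested. RNA of HEK293T cells was sequenced from 10 libraries. In 3 libraries the cells overexpressed BRSK2 and in 3 they overexpressed BRSK1, kinases of the AMPK-related family that are best known from neurons. In 2 libraries they overexpressed hcRED, a far-red fluorescent protein that serves as the protein control, and 2 libraries were labelled Mock. Collection came 24 hours after overexpression began for BRSK2, BRSK1 and hcRED, and no time is given for Mock. The labels name HEK293T for every library. How the constructs were introduced, the promoters that drove them, the share of cells that took them up and whether replicates were separate cultures are not given in the labels, so p-values speak only for the spread among these 10 libraries. The study's title concerns both kinases as negative regulators of the transcription factor NRF2.

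p53 is a transcription factor that cells stabilise after DNA damage and other stress. It switches on genes that halt the cell cycle, repair DNA, alter metabolism or start apoptosis, and it also switches on MDM2, the ubiquitin ligase that sends p53 itself to degradation. HEK293T cells carry the SV40 large T antigen, which binds p53, and adenovirus E1 proteins, so they hold abundant p53 whose control differs from that of untransformed cells. Many p53 targets also answer to other factors, among them ATF4, FOXO proteins and growth factor signals. Expression was measured as RNA in bulk samples, in which fewer cells of a type and less RNA per cell cannot be told apart.

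Libraries held 16516116 to 24304302 counts. The 5 HEK293T markers PAX2, LHX1, VIM, NEFL and NEFM were detected in all 10 libraries, and the blood marker PTPRC had no count in any of them. The overexpressed kinase checked the labels, since BRSK2 averaged 92144 CPM (CPM, read counts relative to the library's TMM-scaled total, as for all CPM values here) in BRSK2 libraries against 96.0 CPM in Mock libraries, and BRSK1 averaged 60643 CPM in BRSK1 libraries against 12.2 CPM in Mock libraries. Kinase transcripts took 6.99% to 10.4% of the counts in BRSK2 libraries and 4.72% to 6.97% in BRSK1 libraries. Mitochondrial transcripts took 5.29% to 6.11% of counts with BRSK2, 4.17% to 5.73% with BRSK1, 5.82% and 6.48% with hcRED, and 7.17% and 7.88% in Mock, and their part in the results below was not tested.

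Near their start sites, some of these genes carry the paired half-site that p53 binds, and the sites are shown here since they mark which members have such a sequence next to the promoter. The search used the p53 consensus of a pair of adjacent 10-base half-sites with no spacer, which reads the same on both strands, with all 4 core C and G bases matched and at most 3 other mismatches. It covered RefSeq windows of GRCh38.p14 from 250 bases before to 50 after each annotated start, which 26 of the 31 members had. No window was listed for TNFRSF10B, PHLDA3, TP53INP1, RRM2B and GADD45A. A match was found in 7 of the 26 members (26.9%), and in 373 of all 27305 genes with windows (1.37%). The 7 sites follow, 5′ to 3′ on the gene's strand, with the site in capitals and up to 5 bases on either side in lower case.
DDB2: gctccAAGCTGGTTTGAACAAGCCCtgggc
AEN: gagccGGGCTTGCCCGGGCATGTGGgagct
FAS: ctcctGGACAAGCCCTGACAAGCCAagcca
MDM2: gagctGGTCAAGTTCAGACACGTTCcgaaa
FDXR: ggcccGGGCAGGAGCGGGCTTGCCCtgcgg
GDF15: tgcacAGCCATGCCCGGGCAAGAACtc
SESN1: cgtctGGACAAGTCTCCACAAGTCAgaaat
DDB2 had 1 mismatch at chr11:47214969-47214988 on the plus strand, with its first base 5 bases before the start. AEN (chr15:88621306-88621325, plus strand), FAS (chr10:88991309-88991328, plus strand) and MDM2 (chr12:68808923-68808942, plus strand) each had 2 mismatches. FDXR (chr17:74872996-74873015, minus strand), GDF15 (chr19:18386186-18386205, plus strand, 28 bases after the start) and SESN1 (chr6:109009018-109009037, minus strand) had 3 mismatches each. Of these 7 genes 4 (DDB2, AEN, FDXR and GDF15) were called higher with at least 1 kinase in the tests below, as were 4 of the 19 members with a window and no match (CDKN1A, PERP, PLK3 and XPC). The share of all genes called higher with at least 1 kinase, with or without a match, was not counted. These counts therefore have no background, and a link between a match and a call was not tested. A match is a stretch of letters and was not tested for binding, and p53 sites farther from the start lie outside these windows.

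Against both controls, each kinase was accompanied by higher RNA for a part of the p53 targets. With BRSK2, 7 of the 31 rose and 1 fell, and with BRSK1 8 rose and none fell (edgeR's quasi-likelihood test with TMM scaling factors, adjusted p under 0.05 over 16936 genes). The split with BRSK2 depended on the scaling. By library totals alone, edgeR's test called 4 members higher and 4 lower with BRSK2, beside 494 and 2507 of all genes. With BRSK1 it called 7 higher and none lower, beside 463 and 733 of all genes. Under that scaling DDB2, AEN and TNFRSF10B were not called with BRSK2, and MDM2, RRM2B and POLH were called lower. With TMM factors, across all tested genes 4.77% rose and 3.05% fell with BRSK2, and 3.77% rose and 2.66% fell with BRSK1. CDKN1A, PLK3, TNFRSF10B, XPC, DDB2 and GDF15 rose with both kinases, AEN rose with BRSK2, FDXR and PERP rose with BRSK1, and BAX fell with BRSK2. The median log2 fold change of the 31 was 0.20 with BRSK1 and 0.02 with BRSK2, beside 0.00 for all tested genes in both. Of the 31, 24 had a positive fold change with BRSK1, and 16 with BRSK2, or 11 with BRSK2 when counts were scaled by library totals alone, where the median of the 31 was -0.09 and that of all genes -0.10. At an unadjusted p under 0.05, 9 members were higher and 4 lower with BRSK2, and 16 were higher and none lower with BRSK1. The share of all genes at an unadjusted p under 0.05 was not counted, so such counts here and below have no background beside them. All BRSK2 libraries lay above all 4 control libraries for 5 members and below them for 4, beside 9.09% and 8.2% of all genes. All BRSK1 libraries lay above the controls for 10 members and below them for none, beside 9.93% and 8.44% of all genes.

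**Figure D1:**
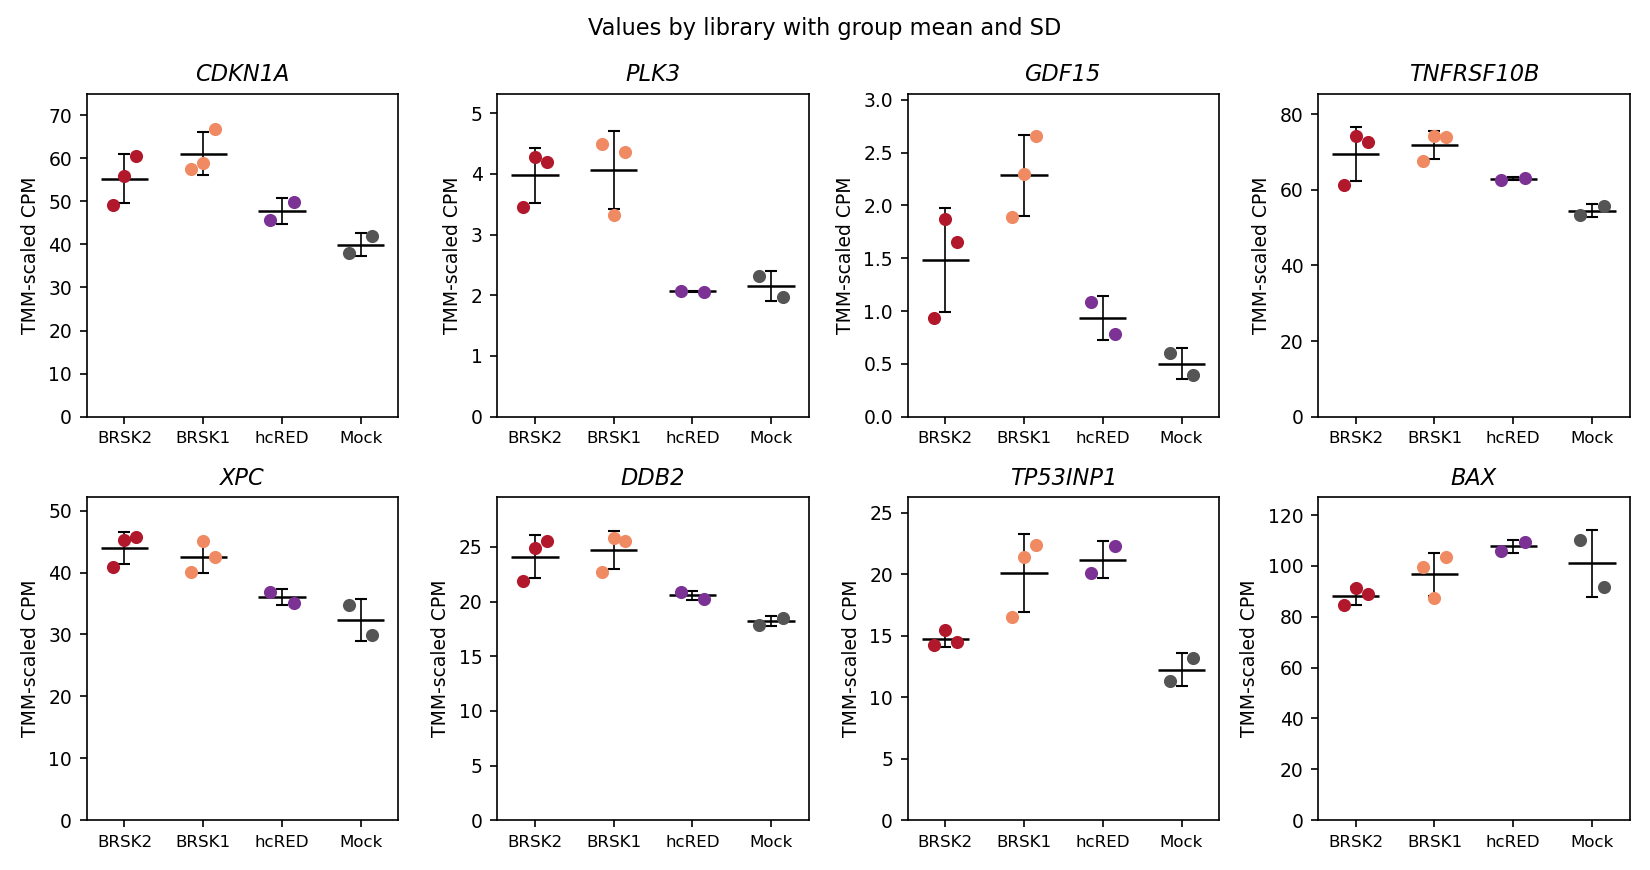
TMM-scaled CPM (vertical axes from 0) of 8 p53 target genes in each library, with 1 point per library and the group mean and SD as bars, for BRSK2 and BRSK1 (3 libraries each) and hcRED and Mock (2 each). PLK3 averaged 3.98 CPM with BRSK2 and 4.06 CPM with BRSK1 against 2.07 CPM with hcRED and 2.15 CPM in Mock, CDKN1A, TNFRSF10B, XPC, DDB2 and GDF15 had group means that stepped down from kinase to hcRED to Mock, and the hcRED and BRSK1 libraries overlapped for TP53INP1.

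Many of these genes also stood higher with the control protein than in Mock. In hcRED libraries 25 of the 31 had a positive log2 fold change over Mock libraries, with a median of 0.16 beside 0.00 for all tested genes. Both hcRED libraries lay above both Mock libraries for 19 of the 31 and below them for 1, TP53I3, where 20% of all tested genes lay above and 20.3% below. Scaled by RLE factors the count above was 18, beside 19.8% of all genes. By library totals alone it was 20, where 27.7% of all genes lay above and 13.5% below. By the test across all genes 1 member was called, TP53INP1, in a comparison in which 0.0059% of all genes rose and 0.0236% fell. It was the only gene called higher with hcRED among the 16936. At an unadjusted p under 0.05, 7 members were higher with hcRED and none was lower.

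Against hcRED alone, few members were called. With BRSK2, PLK3 rose and TP53INP1 fell, 1 each of the 31, where 2.22% of all genes rose and 1.36% fell. With BRSK1 none of the 31 was called where 0.785% of all genes were, with 8 higher and none lower at an unadjusted p under 0.05; DESeq2 called 1 and limma-voom called none. The median log2 fold change against hcRED was 0.05 with BRSK1, with 21 of 31 positive, and -0.07 with BRSK2, with 14 of 31 positive. By library totals alone 15 of 31 were positive with BRSK1, with a median of -0.02 beside -0.06 for all genes. All BRSK2 libraries lay above both hcRED libraries for 5 members and below them for 9, beside 17.1% and 16.9% of all genes, and all BRSK1 libraries lay above them for 11 and below for 3, beside 17.3% and 16.7%. Against Mock alone, 8 members rose with BRSK2 and 11 rose with BRSK1, with no member lower. Of all genes 3.53% rose and 1.97% fell with BRSK2 over Mock, and 3.55% rose and 3.14% fell with BRSK1 over Mock. These comparisons share libraries, and the contrast between hcRED and Mock is the difference between the pairs.

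None of the 31 passed the test of BRSK2 against BRSK1, in which 0.348% of all genes did, and by other tools DESeq2 called 1 lower and limma-voom none. At an unadjusted p under 0.05, 8 members were lower with BRSK2 and 1, BTG2, was higher. The log2 fold change was below 0 for 25 of the 31, with a median of -0.14, and all 3 BRSK2 libraries lay below all 3 BRSK1 libraries for 10 members and above them for none, where 9.02% of all genes lay below and 8.65% above. These 10 were CCNG2, FAS, FDXR, GDF15, MDM2, PERP, POLH, SESN1, TIGAR and TP53INP1. By library totals alone, 29 of the 31 were negative, but that scaling also moved the genes as a whole. The median of the 31 was then -0.20 and that of all genes -0.07, and 16.8% of all genes lay below and 4.1% above.

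**Figure D2:**
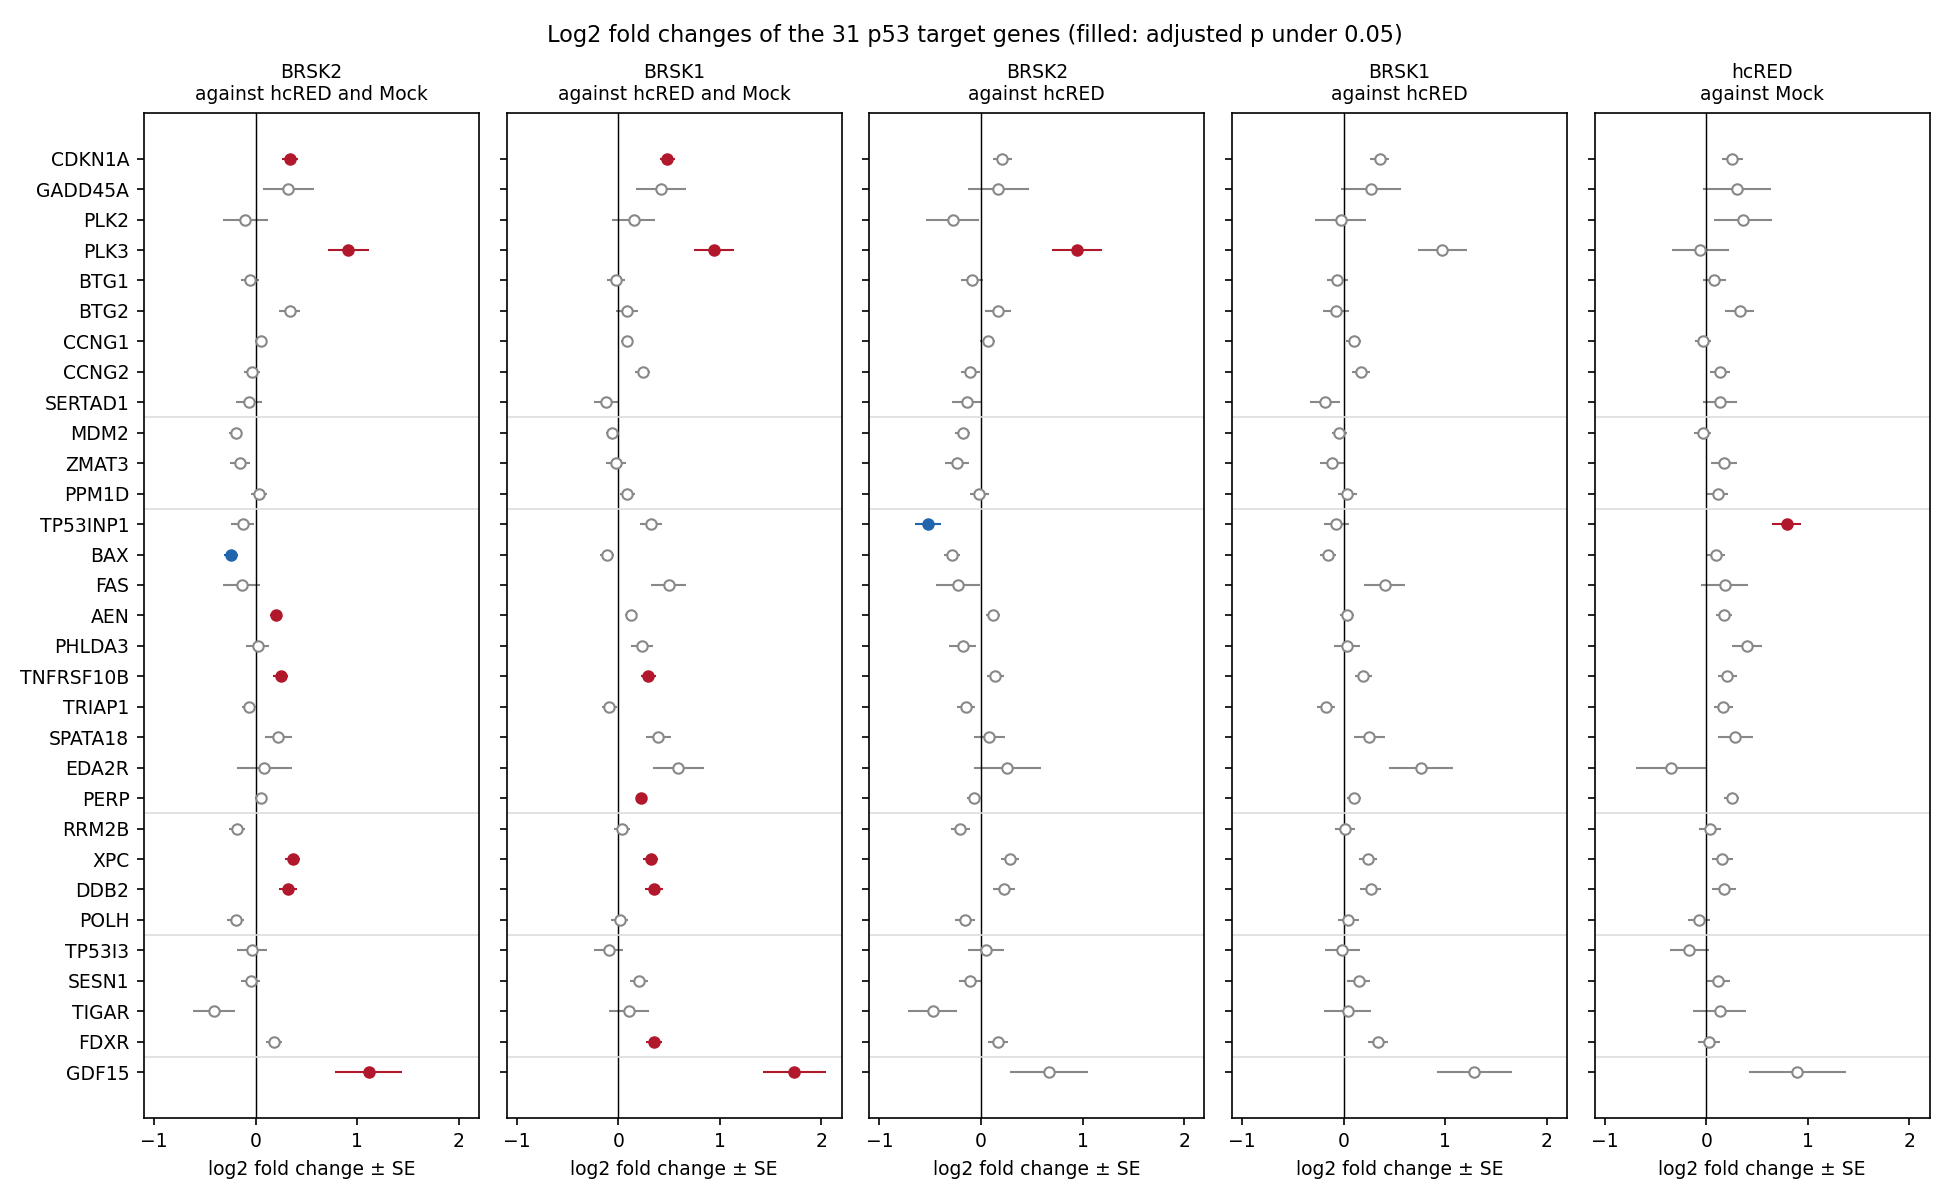
Log2 fold change ± SE (horizontal axes) of the 31 p53 target genes, ordered by role and divided by grey lines, in 5 comparisons. Filled points passed an adjusted p under 0.05 (red higher, blue lower): 8 and 8 members against both controls, 2 and none against hcRED alone, and 1 between hcRED and Mock.

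Among the 9 genes of cell cycle and growth arrest, 2 rose with each kinase. CDKN1A encodes p21, the inhibitor of cyclin-dependent kinases through which p53 arrests cells in G1, and lies on the plus strand at chr6:36676460-36687339 (hg38). Its level was 49.2, 55.9 and 60.6 CPM in BRSK2 libraries and 57.5, 58.9 and 66.7 CPM in BRSK1 libraries, against 45.6 and 49.9 CPM in hcRED libraries and 38.0 and 41.9 CPM in Mock libraries. All BRSK1 libraries were above all controls, while the lowest BRSK2 library was just under the higher hcRED library. Over both controls CDKN1A rose by 0.34 ± 0.08 with BRSK2 (log2 ± SE here and below, edgeR adjusted p = 0.00964) and by 0.48 ± 0.08 with BRSK1 (adjusted p = 0.000872). Against hcRED alone its log2 fold changes were 0.21 ± 0.09 with BRSK2 (edgeR adjusted p = 0.242) and 0.35 ± 0.09 with BRSK1 (adjusted p = 0.0677), and hcRED over Mock gave 0.26 ± 0.10 (adjusted p = 0.461). With BRSK2 replicate 3 left out, CDKN1A no longer passed for BRSK2 (edgeR adjusted p = 0.117), nor with hcRED replicate 1 left out (adjusted p = 0.0581), and the BRSK1 call was kept without each single library.

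PLK3, a stress-responsive polo-like kinase at chr1:44800225-44805990 on the plus strand, was the only member called higher against hcRED. It had 3.45, 4.28 and 4.20 CPM in BRSK2 libraries and 4.50, 3.32 and 4.36 CPM in BRSK1 libraries, against 2.07 and 2.06 CPM with hcRED and 2.32 and 1.98 CPM in Mock. Every kinase library lay above every control library, and the 2 controls were level, with a log2 fold change of -0.06 ± 0.28 between them. Over both controls PLK3 rose by 0.91 ± 0.20 with BRSK2 (edgeR adjusted p = 0.00603) and by 0.94 ± 0.19 with BRSK1 (adjusted p = 0.00646). Over hcRED alone it rose by 0.94 ± 0.24 with BRSK2 (edgeR adjusted p = 0.0319), and the fold change with BRSK1 was 0.97 ± 0.24 (adjusted p = 0.0526). The kinases differed by -0.03 on the log2 scale. PLK3 rested on 40 to 105 counts per library, and limma-voom called 0 members higher with BRSK2 over hcRED. The BRSK1 call ended without BRSK1 replicate 3 (adjusted p = 0.0508), and the call against hcRED was lost without BRSK2 replicate 2 (0.0937), BRSK2 replicate 3 (0.113), hcRED replicate 1 (0.189) or hcRED replicate 3 (adjusted p = 0.230), with log2 fold changes of 0.89 to 0.95.

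By edgeR's test with TMM factors, the other 7 growth arrest genes were not called in any comparison of the kinases with both controls or with hcRED. BTG2, an antiproliferative gene also induced at once by growth factors, had a log2 fold change of 0.33 ± 0.11 with BRSK2 over both controls (edgeR adjusted p = 0.0573) and 0.33 ± 0.14 with hcRED over Mock (adjusted p = 0.507). Its level was 18.9, 23.3 and 25.5 CPM in BRSK2 libraries, 17.5 and 22.6 CPM in hcRED libraries, and 15.2 and 16.7 CPM in Mock libraries. CCNG2, an unconventional cyclin linked to arrest and a FOXO target, had 0.24 ± 0.08 with BRSK1 (edgeR adjusted p = 0.0579) and -0.04 with BRSK2. It passed as higher with BRSK1 without BRSK2 replicate 1 (edgeR adjusted p = 0.0365) or BRSK1 replicate 1 (0.0364). GADD45A, a DNA damage and stress sensor, spread widely within groups, with 29.0, 50.2 and 50.9 CPM in BRSK2 libraries, 38.2, 50.4 and 50.2 CPM in BRSK1 libraries, 30.7 and 46.3 CPM in hcRED libraries, and 32.9 and 29.6 CPM in Mock libraries. CCNG1, another cyclin G, was the member with the highest level per length, at 69.3 CPM per kb over all libraries, and had log2 fold changes of 0.05 with BRSK2 and 0.08 with BRSK1. PLK2, at 0.596 CPM per kb, was the lowest on that scale. BTG1, PLK2 and SERTAD1 had fold changes between -0.12 and 0.15 with either kinase over both controls.

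By edgeR's test with TMM factors, the 3 genes that feed back on p53 were not called in any comparison, and MDM2 alone reached an unadjusted p under 0.05, as lower with BRSK2 over both controls and over hcRED. MDM2, which carries one of the promoter sites shown above, had 95.8, 85.8 and 96.8 CPM in BRSK2 libraries and 98.2, 107.0 and 100.4 CPM in BRSK1 libraries, against 101.6 and 108.3 CPM with hcRED and 103.4 and 112.0 CPM in Mock. All 3 BRSK2 libraries were below every other library, and BRSK1 overlapped the controls. The log2 fold change over both controls was -0.20 ± 0.06 with BRSK2 (edgeR adjusted p = 0.054) and -0.06 with BRSK1 (adjusted p = 0.605). MDM2 had fold changes of opposite sign to CDKN1A with both kinases. Without BRSK2 replicate 1 or without Mock replicate 2, MDM2 passed as lower with BRSK2 (edgeR adjusted p = 0.0285 and 0.0422). It also passed as lower by DESeq2 (adjusted p = 0.0399), by edgeR with library totals alone (adjusted p = 0.00302), and by edgeR when the kinases' own counts did not enter the factors (adjusted p = 0.0497). PPM1D, a phosphatase that turns p53 signalling down, had log2 fold changes of 0.04 with BRSK2 and 0.09 with BRSK1. ZMAT3, an RNA-binding zinc finger protein, had -0.15 with BRSK2 and -0.02 with BRSK1.

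Of the 10 genes of apoptosis and cell death, 2 rose and 1 fell with BRSK2, and 2 rose with BRSK1. TNFRSF10B, the TRAIL death receptor DR5 and also an ATF4 target, had 61.2, 74.3 and 72.7 CPM in BRSK2 libraries and 67.6, 74.2 and 73.9 CPM in BRSK1 libraries, against 62.7 and 63.2 CPM with hcRED and 53.4 and 55.7 CPM in Mock. BRSK1 libraries stood above all controls, and 1 BRSK2 library fell below hcRED. It rose by 0.24 ± 0.07 with BRSK2 (edgeR adjusted p = 0.0349) and by 0.30 ± 0.07 with BRSK1 (adjusted p = 0.0146) over both controls, while over hcRED the values were 0.14 ± 0.08 (adjusted p = 0.408) and 0.19 ± 0.08 (adjusted p = 0.288). hcRED over Mock gave 0.21 ± 0.09 (edgeR adjusted p = 0.522), similar in size. By limma-voom TNFRSF10B was not called with BRSK2 over both controls (adjusted p = 0.0538). For BRSK2 the call ended without BRSK2 replicate 2 (adjusted p = 0.189) or 3 (0.196), without hcRED replicate 1 (0.103) or 3 (0.08775), or without Mock replicate 2 (0.0793) or 3 (0.0588). For BRSK1 the call ended without BRSK1 replicate 2 (adjusted p = 0.0642) or 3 (0.0975) or hcRED replicate 1 (0.0640).

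AEN, an apoptosis-enhancing nuclease on chromosome 15 with a site next to its start, had 110.6, 123.7 and 121.2 CPM with BRSK2 and 114.0, 107.0 and 114.9 CPM with BRSK1, against 108.5 and 110.0 CPM with hcRED and 95.8 and 97.9 CPM in Mock. BRSK2 libraries lay above all controls, the lowest of them close to hcRED. AEN rose by 0.20 ± 0.06 with BRSK2 over both controls (edgeR adjusted p = 0.0328), with 0.12 with BRSK1 (adjusted p = 0.222) and 0.17 ± 0.08 for hcRED over Mock (adjusted p = 0.51). The call ended without BRSK2 replicate 2 (adjusted p = 0.153) or 3 (0.1645), hcRED replicate 1 (0.108) or 3 (0.0831), or Mock replicate 2 (0.0724) or 3 (0.0650). PERP, a membrane protein of desmosomes and an apoptosis effector, had 119.6, 117.7 and 127.4 CPM in BRSK2 libraries and 137.6, 134.7 and 138.6 CPM in BRSK1 libraries, against 121.8 and 133.6 CPM with hcRED and 110.1 and 104.7 CPM in Mock. BRSK1 libraries were above all others, and BRSK2 libraries overlapped hcRED. PERP rose by 0.23 ± 0.06 with BRSK1 (edgeR adjusted p = 0.0204), beside 0.05 with BRSK2, and hcRED over Mock gave 0.25 ± 0.08 (adjusted p = 0.277). The PERP call was lost without BRSK1 replicate 1 (edgeR adjusted p = 0.0536) or 3 (0.109), hcRED replicate 1 (0.122) or Mock replicate 3 (0.0682).

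BAX, the BCL2 family member that permeabilises the mitochondrial outer membrane, was the member called lower against both controls. It lies on the plus strand at chr19:48954815-48961798. BAX had 84.5, 91.5 and 88.9 CPM in BRSK2 libraries and 99.5, 87.3 and 103.4 CPM in BRSK1 libraries, against 105.9 and 109.4 CPM with hcRED and 110.2 and 91.7 CPM in Mock. The highest BRSK2 library was just under the lower Mock library. BAX fell by 0.24 ± 0.07 on the log2 scale with BRSK2 (edgeR adjusted p = 0.0374), while its log2 fold change was -0.11 with BRSK1 (adjusted p = 0.38) and -0.29 ± 0.08 with BRSK2 over hcRED alone (adjusted p = 0.0541). Its fall with BRSK2 over both controls was not called by limma-voom (adjusted p = 0.0582) or by edgeR without robust estimation (adjusted p = 0.0541). The call ended without BRSK2 replicate 1 (adjusted p = 0.0689), 2 (0.0760) or 3 (0.137), hcRED replicate 1 (0.0785) or 3 (0.104), or Mock replicate 2 (0.140). Against hcRED it was called without BRSK1 replicate 2 (adjusted p = 0.0418), Mock replicate 2 (0.0331) or Mock replicate 3 (0.0324).

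TP53INP1, a gene on chromosome 8 whose nuclear protein promotes p53-dependent cell death, was the only member called between the controls. It had 14.2, 15.5 and 14.5 CPM in BRSK2 libraries, 16.5, 21.4 and 22.4 CPM in BRSK1 libraries, 20.1 and 22.3 CPM in hcRED libraries, and 11.3 and 13.2 CPM in Mock libraries. The BRSK2 libraries lay between Mock and hcRED without overlap, and the BRSK1 libraries overlapped hcRED. TP53INP1 rose by 0.79 ± 0.14 with hcRED over Mock (edgeR adjusted p = 0.048) and fell by 0.52 ± 0.13 with BRSK2 relative to hcRED (adjusted p = 0.0244). The log2 fold change of BRSK1 over hcRED was -0.07 ± 0.13 (edgeR adjusted p = 0.85), that of BRSK1 over Mock was 0.72 ± 0.13 (adjusted p = 0.00321), and that of BRSK2 over BRSK1 was -0.45 ± 0.12 (adjusted p = 0.104). The call of hcRED over Mock was lost without hcRED replicate 3 (edgeR adjusted p = 0.997), Mock replicate 2 (0.226) or 3 (0.504), BRSK2 replicate 2 (0.0653) or 3 (0.0907), or BRSK1 replicate 2 (0.0520) or 3 (0.0512), and the call of BRSK2 below hcRED was lost without BRSK2 replicate 3 (0.100), hcRED replicate 1 (0.0867) or 3 (0.280). NDUFAF6 spans TP53INP1 on the opposite strand over 23440 bases with 94.2% as many counts, and the strand setting of the counting is not given, so reads of the pair could be mixed. NDUFAF6 itself had log2 fold changes of 0.19 ± 0.13 for hcRED over Mock (edgeR adjusted p = 0.696) and -0.05 for BRSK2 over hcRED.

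The other 5 genes of this group were not called in these 6 comparisons. FAS, the FAS ligand receptor, had 3.45, 3.20 and 2.93 CPM with BRSK2 and 4.59, 5.62 and 4.65 CPM with BRSK1, against 3.72 and 3.77 CPM with hcRED and 3.48 and 3.12 CPM in Mock. BRSK1 libraries were above all others, with a log2 fold change of 0.49 ± 0.17 over both controls (edgeR adjusted p = 0.0815), and BRSK2 over BRSK1 gave -0.63 ± 0.19 (adjusted p = 0.15). ACTA2 overlaps FAS on the opposite strand with 32.0% as many counts. Over both controls it was itself called higher, by 1.28 ± 0.32 with BRSK2 (edgeR adjusted p = 0.0169) and 1.09 ± 0.32 with BRSK1 (adjusted p = 0.0419), with libraries that overlapped. Over hcRED alone ACTA2 had 0.43 ± 0.36 with BRSK2 (edgeR adjusted p = 0.585) and 0.24 ± 0.36 with BRSK1 (adjusted p = 0.818). For hcRED over Mock it had 1.69 ± 0.47 (edgeR adjusted p = 0.227). SPATA18, a p53-induced regulator of mitochondrial quality, had 0.39 ± 0.13 with BRSK1 (edgeR adjusted p = 0.0613). PHLDA3, an AKT repressor, had 0.23 ± 0.11 with BRSK1 over both controls (adjusted p = 0.213) and 0.40 ± 0.14 for hcRED over Mock (adjusted p = 0.386). EDA2R, a receptor of the ectodysplasin A2 ligand, had 26 to 90 counts per library and a log2 fold change of 0.59 ± 0.25 with BRSK1 (edgeR adjusted p = 0.17). TRIAP1, a small inhibitor of apoptosome formation, had -0.06 with BRSK2 and -0.09 with BRSK1.

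Of the 4 genes of DNA repair and nucleotide supply, 2 rose with each kinase, and both recognise damage in nucleotide excision repair. XPC, at chr3:14145147-14178783 on the minus strand, had 40.9, 45.3 and 45.7 CPM in BRSK2 libraries and 40.1, 45.2 and 42.5 CPM in BRSK1 libraries, against 36.9 and 35.2 CPM with hcRED and 34.7 and 29.9 CPM in Mock. DDB2, the damage-binding subunit at chr11:47214465-47239240 on the plus strand, had 21.9, 24.9 and 25.6 CPM in BRSK2 libraries and 22.7, 25.9 and 25.6 CPM in BRSK1 libraries, against 20.9 and 20.3 CPM with hcRED and 17.9 and 18.5 CPM in Mock. For both genes every kinase library lay above every control library, and both hcRED libraries lay above both Mock libraries. XPC rose by 0.36 ± 0.08 with BRSK2 (edgeR adjusted p = 0.0046) and by 0.32 ± 0.08 with BRSK1 (adjusted p = 0.0149), and DDB2 rose by 0.32 ± 0.09 with BRSK2 (adjusted p = 0.0302) and by 0.35 ± 0.09 with BRSK1 (adjusted p = 0.019). Over hcRED alone XPC had 0.29 ± 0.09 with BRSK2 (edgeR adjusted p = 0.0859) and 0.24 ± 0.09 with BRSK1 (adjusted p = 0.215), and DDB2 had 0.23 ± 0.11 (adjusted p = 0.258) and 0.27 ± 0.11 (adjusted p = 0.236). The XPC call with BRSK2 held without each single library.

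XPC also passed over hcRED with BRSK2 when BRSK2 replicate 1 was left out (edgeR adjusted p = 0.0326). With BRSK1, XPC was lost without BRSK1 replicate 2 (adjusted p = 0.0847) or 3 (0.0755), hcRED replicate 3 (0.0529) or Mock replicate 3 (0.0671). DDB2 was lost with BRSK2 without BRSK2 replicate 2 (adjusted p = 0.119) or 3 (0.168), hcRED replicate 1 (0.0749) or 3 (0.0867), or Mock replicate 2 (0.0680) or 3 (0.0615), and with BRSK1 without BRSK1 replicate 2 (0.0847) or 3 (0.113) or hcRED replicate 1 (0.0603) or 3 (0.0547). XPC overlaps LSM3, an RNA-processing gene on the opposite strand with 265% as many counts, by 426 bases. LSM3 had log2 fold changes of -0.22 ± 0.07 with BRSK2 (edgeR adjusted p = 0.0518) and -0.07 with BRSK1, of opposite sign to those of XPC. POLH, a translesion DNA polymerase, and RRM2B, the p53-inducible ribonucleotide reductase subunit, were not called. Their log2 fold changes over both controls were -0.19 ± 0.08 and -0.18 ± 0.08 with BRSK2 (edgeR adjusted p = 0.165 and 0.175) and 0.01 and 0.03 with BRSK1.

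Among the 4 genes of redox control and metabolism, 1 rose with BRSK1 and none was called with BRSK2, where 1 (FDXR) was higher at an unadjusted p under 0.05. FDXR, the mitochondrial ferredoxin reductase at chr17:74862497-74873031 on the minus strand, had 31.1, 32.8 and 32.9 CPM with BRSK2 and 38.8, 36.8 and 33.8 CPM with BRSK1, against 30.0 and 27.6 CPM with hcRED and 30.4 and 26.0 CPM in Mock. Both kinase groups lay above all controls, BRSK1 the higher. FDXR rose by 0.35 ± 0.08 with BRSK1 over both controls (edgeR adjusted p = 0.0109), and BRSK1 over hcRED gave 0.34 ± 0.10 (adjusted p = 0.0989), almost the same size, with 0.03 between hcRED and Mock. With BRSK2 the value was 0.18 ± 0.08 (edgeR adjusted p = 0.188). For BRSK1 the call ended without Mock replicate 3 (adjusted p = 0.0508). SESN1, a sestrin that restrains mTORC1, had log2 fold changes of -0.05 with BRSK2 and 0.20 ± 0.09 with BRSK1 (edgeR adjusted p = 0.186). TIGAR, a fructose bisphosphatase that slows glycolysis, had -0.41 ± 0.21 with BRSK2 (edgeR adjusted p = 0.238) on 40 to 84 counts per library. TP53I3, a quinone reductase homologue, had -0.04 with BRSK2 and -0.10 with BRSK1.

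GDF15, a secreted stress cytokine of the TGF-beta superfamily and also an ATF4 target, had the highest fold changes over both controls and the fewest counts. It lies on the plus strand at chr19:18374731-18389176. Its level was 0.931, 1.87 and 1.65 CPM in BRSK2 libraries and 1.89, 2.30 and 2.66 CPM in BRSK1 libraries, against 1.08 and 0.783 CPM with hcRED and 0.606 and 0.396 CPM in Mock, from 8 to 64 counts per library. BRSK1 libraries were above all others, and the lowest BRSK2 library fell within the hcRED range. GDF15 rose by 1.11 ± 0.33 with BRSK2 (edgeR adjusted p = 0.0406) and by 1.73 ± 0.31 with BRSK1 (adjusted p = 0.00235) over both controls. Over hcRED alone the log2 fold changes were 0.67 ± 0.38 with BRSK2 (edgeR adjusted p = 0.385) and 1.29 ± 0.37 with BRSK1 (adjusted p = 0.104), and hcRED over Mock gave 0.89 ± 0.48 (adjusted p = 0.591). The rise with BRSK2 over both controls was not called by limma-voom (adjusted p = 0.0955) or by edgeR without robust estimation (adjusted p = 0.0506). For BRSK2 the call ended without BRSK2 replicate 2 (adjusted p = 0.212) or 3 (0.163), BRSK1 replicate 2 (0.0508) or 3 (0.0570), hcRED replicate 1 (0.0643) or 3 (0.113), or Mock replicate 3 (0.134), and the BRSK1 call was kept without each single library.

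**Figure D3:**
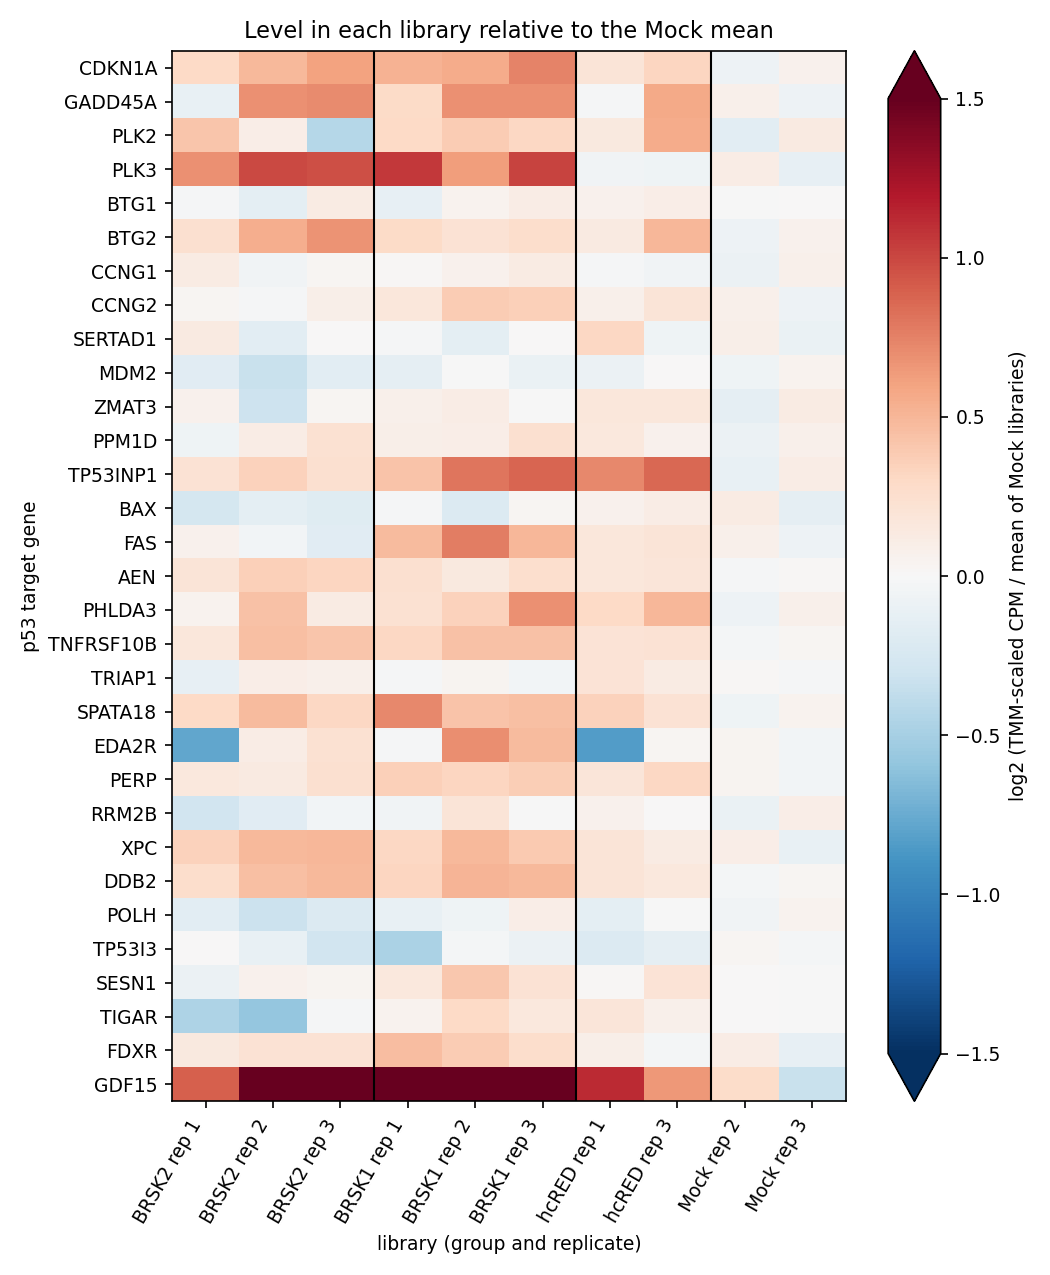
Log2 ratio of the TMM-scaled CPM of each p53 target gene (rows) to the mean of the 2 Mock libraries, in each of the 10 libraries (columns), with colours capped at 1.5 in either direction. GDF15 passed the cap in 5 kinase libraries, PLK3 was red in all 6 kinase libraries and pale in the controls, and TP53INP1 was red in the hcRED libraries as well as in BRSK1 libraries 2 and 3.

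**Figure D4:**
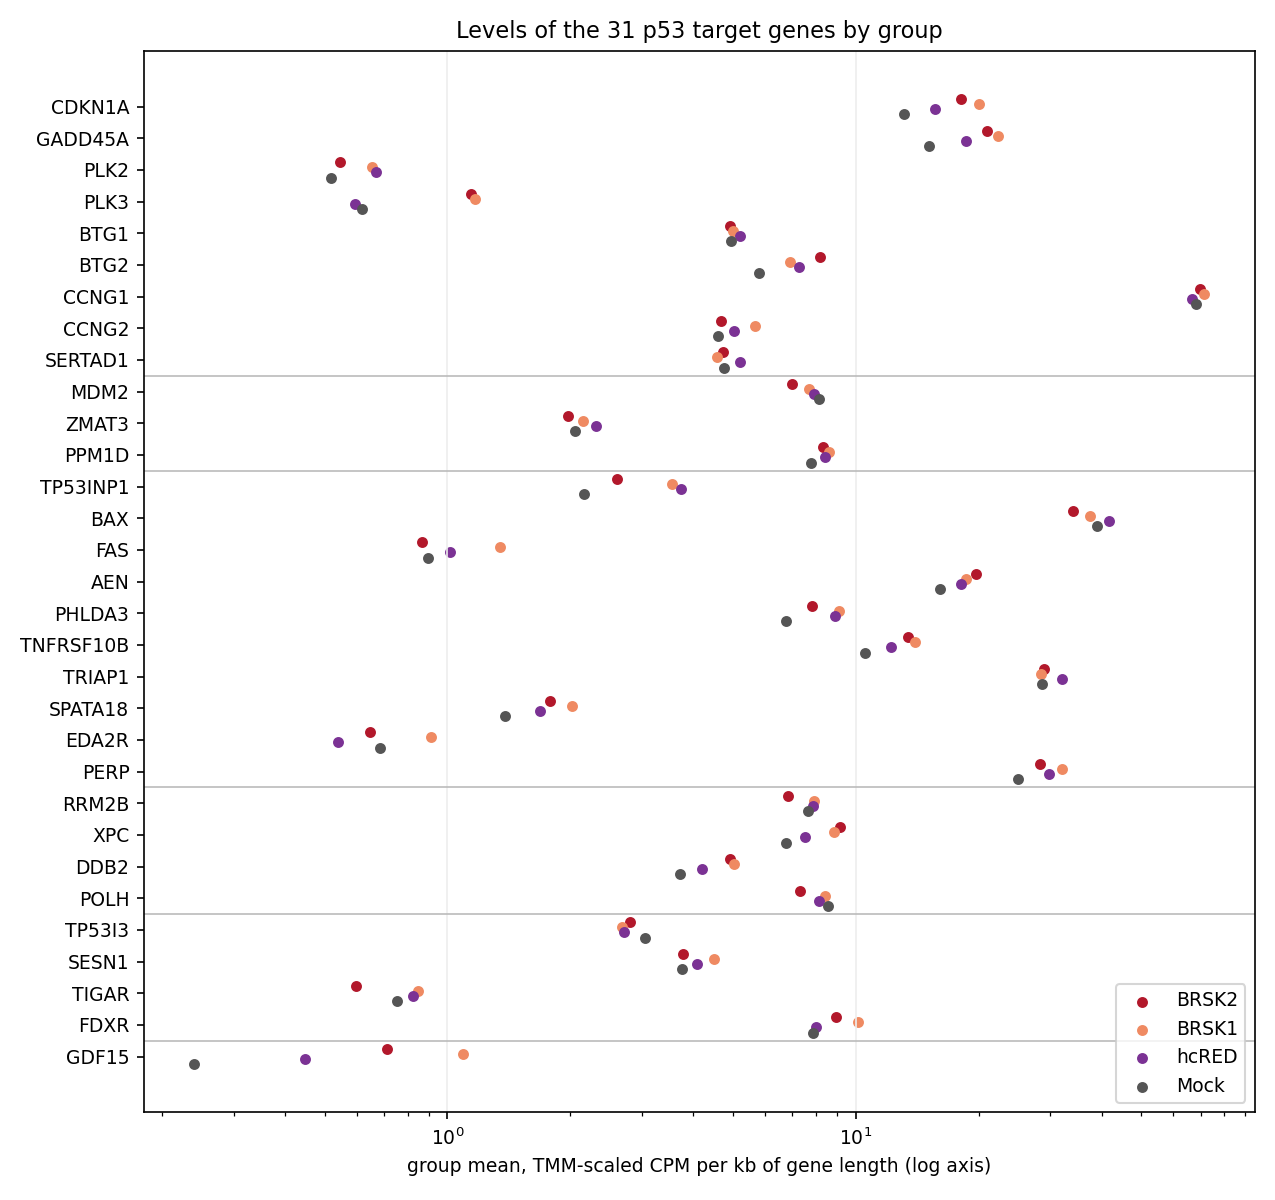
Group means of the 31 p53 target genes in TMM-scaled CPM per kb of gene length (log axis), ordered by role and divided by grey lines, with 1 point each for BRSK2, BRSK1, hcRED and Mock. Averaged over all libraries, levels ran from 0.596 CPM per kb (PLK2) to 69.3 CPM per kb (CCNG1), a range far wider than the gaps between groups.

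Some members are also targets of other pathways. Of the 6 listed as growth factor-induced immediate early genes (BTG2, PLK2, PLK3, SERTAD1, GADD45A and BTG1) 1 rose with each kinase over both controls, PLK3. Of the 4 listed FOXO targets (CCNG2, SESN1, BTG1 and GADD45A) none was called by edgeR's test with TMM factors in any of the 6 comparisons, with 2 higher at an unadjusted p under 0.05 with BRSK1. An ATF4 list of 4 held GDF15, TNFRSF10B and GADD45A, beside SESN2 from outside the 31. Over both controls 3 of these rose with BRSK2 and 2 with BRSK1. Across all tested genes 4.77% rose with BRSK2 and 3.77% with BRSK1 over both controls.

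A second list held 32 other known p53 targets, of which 29 had enough counts to be tested. With BRSK2 over both controls 6 rose and none fell, beside 4.77% and 3.05% of all genes. With BRSK1 4 rose and 1 fell, beside 3.77% and 2.66% of all genes, and the medians were 0.06 with BRSK2 and 0.08 with BRSK1. Over hcRED alone 2.22% of all genes rose with BRSK2, and 0.785% were called in either direction with BRSK1. BBC3, the BH3-only apoptosis protein PUMA, had 29.4, 36.5 and 41.2 CPM in BRSK2 libraries and 25.9, 27.4 and 29.0 CPM in BRSK1 libraries, against 18.7 and 18.3 CPM with hcRED and 18.9 and 19.4 CPM in Mock. The kinase libraries stood apart from all controls and the controls were level. Over hcRED alone BBC3 rose by 0.95 ± 0.12 with BRSK2 (edgeR adjusted p = 4.7e-05) and by 0.57 ± 0.12 with BRSK1 (adjusted p = 0.0225), the second lost without BRSK1 replicate 2 (adjusted p = 0.0568) or 3 (0.120) or hcRED replicate 1 (0.221) or 3 (0.232). SLC12A4, a potassium chloride cotransporter, rose over hcRED by 0.82 ± 0.10 with BRSK2 (edgeR adjusted p = 2.59e-05) and by 0.67 ± 0.10 with BRSK1 (adjusted p = 0.00125), the second lost without hcRED replicate 1 (adjusted p = 0.0682) or 3 (0.0955). Of the 29, 5 rose over hcRED with BRSK2 (9 without BRSK2 replicate 1, 3 without BRSK2 replicate 2 or 3 or hcRED replicate 3, and 2 without hcRED replicate 1) and 2 with BRSK1 (4 without BRSK2 replicate 1, 1 without BRSK1 replicate 2 or 3, and 0 without either hcRED library).

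SESN2, the stress-induced sestrin that ATF4 also drives, was the gene of that list that differed between the kinases, higher with BRSK2 than with BRSK1 by 0.51 ± 0.08 (edgeR adjusted p = 0.0173). It averaged 245.8 ± 30.2 CPM with BRSK2, 172.8 ± 8.3 CPM with BRSK1, 169.1 ± 24.4 CPM with hcRED and 146.7 ± 5.3 CPM in Mock (SD, n = 3, 3, 2 and 2). The call between the kinases was lost without BRSK2 replicate 2 (adjusted p = 0.0764) or 3 (0.0783) or BRSK1 replicate 1 (0.0677) or 2 (0.0894), and SESN2 over hcRED with BRSK2, at 0.54 ± 0.10, was lost without hcRED replicate 1 (0.0920). PIDD1, a death domain scaffold, rose over both controls by 0.64 ± 0.11 with BRSK2 (edgeR adjusted p = 0.0026) and by 0.52 ± 0.11 with BRSK1 (adjusted p = 0.0129), the second lost without BRSK1 replicate 3 (0.0699), hcRED replicate 1 (0.0607) or Mock replicate 3 (0.0553). SUSD6 rose by 0.42 ± 0.11 and TRAF4, a signalling adaptor, by 0.29 ± 0.08 with BRSK2 over both controls (edgeR adjusted p = 0.0202 and 0.0193). Each was lost without BRSK2 replicate 2 (adjusted p = 0.0660 for SUSD6 and 0.0858 for TRAF4), BRSK2 replicate 3 (0.114 and 0.166) or hcRED replicate 1 (0.0737 and 0.0552), SUSD6 also without Mock replicate 2 (0.0816), and TRAF4 also without hcRED replicate 3 (0.0648) or Mock replicate 3 (0.0902).

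PMAIP1, the BH3-only protein NOXA, rose by 0.68 ± 0.15 with BRSK1 over both controls (edgeR adjusted p = 0.0375), and RAP2B, a small GTPase, fell by 0.31 ± 0.08 on the log2 scale (adjusted p = 0.0237). Over hcRED alone neither was called with BRSK1, at 0.61 ± 0.18 for PMAIP1 (edgeR adjusted p = 0.185) and -0.12 ± 0.10 for RAP2B (adjusted p = 0.606). For hcRED over Mock the values were 0.14 ± 0.20 for PMAIP1 and -0.37 ± 0.10 for RAP2B (edgeR adjusted p = 0.897 and 0.236). PMAIP1 was lost without BRSK2 replicate 2 (adjusted p = 0.0545), BRSK1 replicate 1 (0.0547), 2 (0.104) or 3 (0.123), hcRED replicate 1 (0.0881), or Mock replicate 2 (0.118) or 3 (0.122). RAP2B was lost without BRSK1 replicate 2 (adjusted p = 0.0671) or 3 (0.151), hcRED replicate 1 (0.0825) or 3 (0.0529), or Mock replicate 3 (0.0923). Between hcRED and Mock none of the 29 was called, with 1 higher and 3 lower at an unadjusted p under 0.05, and neither limma-voom nor DESeq2 called any.

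Of 25 tested regulators of the p53 pathway, 1 rose with BRSK2 over both controls, beside 4.77% of all genes, and 1 fell with BRSK1, beside 2.66%. These counts are near the shares over all genes. TP73, a transcription factor of the same family as p53, rose with BRSK2 by 0.41 ± 0.08 over both controls (edgeR adjusted p = 0.00321) and by 0.52 ± 0.10 over hcRED (adjusted p = 0.0041), the second lost without hcRED replicate 1 (0.0756) or 3 (0.0774). HUWE1, a ubiquitin ligase with p53 among its substrates, fell by 0.30 ± 0.07 on the log2 scale with BRSK1 over both controls (edgeR adjusted p = 0.0177), lost without BRSK1 replicate 2 (0.0556) or 3 (0.126), hcRED replicate 1 (0.0781) or Mock replicate 3 (0.0765). Over hcRED alone HUWE1 had -0.20 ± 0.09 with BRSK1 (edgeR adjusted p = 0.285), and hcRED over Mock gave -0.20 ± 0.10 (adjusted p = 0.541). MDM4, the MDM2 relative that binds and restrains p53, averaged 49.0 ± 1.9 CPM with BRSK2, 49.3 ± 0.8 CPM with BRSK1, 47.0 ± 0.2 CPM with hcRED and 49.4 ± 3.6 CPM in Mock (SD, n = 3, 3, 2 and 2) and was not called.

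The authors' deposited table for BRSK2 holds 2 of the 31 members among its 723 genes, PLK3 (log2 fold change 0.92, adjusted p = 0.01394) and XPC (0.37, adjusted p = 0.02041). The authors' deposited table for BRSK1 holds 6 of them among 879 genes, CDKN1A, PLK3, FDXR, TNFRSF10B, DDB2 and XPC, with log2 fold changes of 0.30 to 0.93. All of these had the same direction in the tests above, and each was called there too. GDF15 and PERP with BRSK1, and CDKN1A, TNFRSF10B, DDB2, AEN, GDF15 and BAX with BRSK2, were called above and are not in those tables.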

How the data were processed

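Expression of HEK293T cells was measured as RNA, which was extracted with a column kit and sequenced by a contractor, per the labels' protocols. The submitters' processing notes name STAR, edgeR, limma and the build hg38; which program counted reads, whether it used strand and which gene annotation it used is not given in the sources used for this work. The authors deposited raw read counts per gene in a table for each kinase, and the 4 control columns were identical in both, so the tables were joined on gene ID into 10 libraries. The authors also deposited tables of called genes with log2 fold changes, p-values and limma scores, named so per the file headers, which are quoted where stated; the scores and the deposited log2 CPM tables were not used. Gene positions are those of the deposited tables, which the notes place on hg38.

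Counts were tested with edgeR 4.0.16 in R 4.3.3: filterByExpr (minimum count 10, minimum total 15), TMM factors, and the robust quasi-likelihood F test, in 1 fit of 4 group means over 10 libraries. Benjamini-Hochberg adjustment ran over 16936 genes at a threshold of 0.05. The contrast with both controls weighs the hcRED and Mock group means equally. The SE was taken as the size of the log2 fold change over the root of its F statistic. The biological coefficient of variation was 8.06%. The precision is limited by groups of 2 and 3 libraries. Where a library left out leaves a group with 1 sample, that sample is assumed to vary like the other groups. The steps were tested on simulated data.

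All members and lists were chosen with earlier results of these data known. By the rule for named genes, values in every library are given for members called in at least 1 of 6 comparisons and for CDKN1A, MDM2 and BAX, and from the 2 other lists the called genes, MDM4 and BBC3 are named, except 1 item that is not reported here; library values of BTG2, GADD45A and FAS were added after the values were seen. Alternatives were other scalings (RLE, upper quartile, library totals alone, or without the counts of BRSK1 and BRSK2), other filters, DESeq2 1.42.0, limma-voom (limma 3.58.1), no robust estimation, a correction for GC content (of the longest GENCODE transcript), each library left out in turn, the replicate number as a block, other controls, fitting the compared groups by themselves, and an adjusted p under 0.01. Running them on the other lists was added after the data were seen. Figures were drawn with matplotlib 3.10.9.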

Additional observations from a re-analysis of the deposited data

How the results depend on the processing

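Of the 19 calls of a member in one of the 6 comparisons, 4 were kept under every alternative that gave a value (PLK3 and XPC with BRSK2 and CDKN1A and GDF15 with BRSK1, each over both controls), 15 were lost under at least 1, and none reversed; DESeq2 gave GDF15 no adjusted p. Of the 167 pairs of member and comparison without a call, 28 passed under at least 1 alternative. With BRSK2 over both controls the count of members called was 8, and it was 5 with limma-voom, 5 with all 4 controls as 1 group, 3 at an adjusted p under 0.01 and 2 to 9 when single libraries were left out (2 without BRSK2 replicate 3 or hcRED replicate 1, 3 without BRSK2 replicate 2, 4 without hcRED replicate 3 or Mock replicate 3, and 5 without Mock replicate 2). With BRSK1 over both controls it was 8, and it was 3 at an adjusted p under 0.01 and 3 to 11 when single libraries were left out (3 without BRSK1 replicate 3, and 5 without BRSK1 replicate 2, hcRED replicate 1 or Mock replicate 3). With BRSK2 over hcRED it was 2, and it was 7 by library totals alone (6 of them lower), 1 with limma-voom, 0 at an adjusted p under 0.01 and 0 to 3 when single libraries were left out (0 without BRSK2 replicate 3 or either hcRED library, 1 without BRSK2 replicate 2). With BRSK1 over hcRED it was 0, and it was 1 with DESeq2, 2 with no filter, 3 with the GC content correction, 4 with only the groups compared and 0 to 4 when single libraries were left out (4 without BRSK2 replicate 1). For BRSK2 over BRSK1 it was 0, and it was 2 by library totals alone, 1 with no filter, 1 with DESeq2 and 0 whichever library was left out. For hcRED over Mock it was 1, and it was 0 with a filter of 1 CPM in at least 3 libraries, with limma-voom, with no robust estimation, with only the groups compared and at an adjusted p under 0.01, and 0 to 1 when single libraries were left out. By library totals alone the median log2 fold change of all genes moved to -0.10 with BRSK2 over both controls and to -0.13 over hcRED. With BRSK2 over both controls 494 genes were then higher and 2507 lower, against 808 and 517 with TMM factors. With BRSK2 over hcRED 218 were higher and 1921 lower, against 376 and 230. With BRSK1 over hcRED 133 of all genes were called. That count was 277 with DESeq2, 383 with no filter, 255 with the GC content correction, 407 with only the groups compared and 426 without BRSK2 replicate 1. For BRSK2 over BRSK1 it was 59, and 206 by library totals alone, 188 with no filter and 161 with DESeq2. Except where stated, the cause was not tested.

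The labels share replicate numbers across groups, and the deviations of same-numbered libraries correlated from -0.05 to 0.16. Whether same-numbered libraries were handled together is not given in the labels, and these correlations do not settle it. Under the replicate block the count of all genes called went from 1325 to 2153 with BRSK2 over both controls. It went from 1089 to 1999 with BRSK1 over both controls, and from 5 to 434 for hcRED over Mock. It went from 133 to 345 with BRSK1 over hcRED, and from 59 to 267 for BRSK2 over BRSK1. With the GC content correction added to the block, all genes called were 2488 with BRSK1 over both controls. They were 600 with BRSK1 over hcRED and 704 for hcRED over Mock. With the replicate block the count of members called was 13 with BRSK1 over both controls, 2 with BRSK1 over hcRED, 1 with BRSK2 over BRSK1 and 3 for hcRED over Mock, and with the replicate block and the GC content correction it was 15 with BRSK1 over both controls, 3 with BRSK1 over hcRED and 5 for hcRED over Mock. Among single members, with the replicate block GADD45A was called higher with BRSK2 (0.34, edgeR adjusted p = 0.00396), with BRSK1 (0.46, 0.000253) and with hcRED over Mock (0.58, 0.00383), CCNG2 was called higher with BRSK1 (0.24, 0.0246), and MDM2 was called lower with BRSK2 (-0.19, 0.0397). Members at 8 to 105 counts per library (GDF15 and PLK3) have the widest errors among the members called.

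For the other p53 targets, alternatives moved the count most with BRSK2 over both controls, at 6 and at 13 by library totals alone or with the replicate block, and 12 without BRSK2 replicate 1. For the regulators the count over both controls with BRSK1 was 1, and it was 4 with the replicate block and 0 without BRSK1 replicate 2 or 3, hcRED replicate 1 or Mock replicate 3.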
